A study of Mus musculus with 6 samples.

Results

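Germline, Dppa and 2-cell stage genes were examined in mouse embryonic stem cells differentiating toward neural fate, with and without knockdown of Geminin. The group was a list of 36 gene symbols, sorted by role into 11 2-cell and Dppa genes, 7 germ cell specification genes, 7 genes of the piRNA pathway and germ granules, 6 meiosis genes and 5 testis and X-linked genes. A symbol was used where a probe set was annotated to it alone, and the probe set with the highest mean signal over the arrays stood for it. This held for 31 symbols, of 18193 genes measured in that way. Tdh, Nanos3 and Tdrd6 had no such probe set and are not analysed here, and the probe set of Zscan4c and Zscan4d carries several Zscan4 symbols and was assigned to none. Of the 31, 28 lay above the filter on dim genes, a mean signal of 20.1, and 14185 genes of the whole array did.

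The cells came from ES-E14TG2a (129P2), a line of embryonic stem cells, and spent 2 days in N2B27, which lacks serum and lets such cells turn neural; their tissue label is neurectoderm. All of them, controls included, carried an inducible shRNAmir, a hairpin RNA built like a microRNA that targets Geminin once Dox (doxycycline) is added. GemKD cultures received Dox (500 ng in the labels, with no volume) and controls did not. There were 3 experiments, each with 1 GemKD and 1 control array; hairpin 11 served in experiments 1 and 3, and hairpin 9, in another line, in experiment 2. Whether a line is 1 clone is not given in the sources used here, and no culture had Dox without a Geminin hairpin, so Dox and knockdown cannot be told apart.

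Many germline genes are kept silent in somatic cells by DNA methylation at CpG-rich promoters and by a variant Polycomb complex with PCGF6, E2F6, MGA and MAX. Embryonic stem cells are known to transcribe part of this program, among it meiosis and piRNA genes, without becoming germ cells. Dppa genes mark pluripotent cells and the early embryo, and the Zscan4 and Tcstv genes are known for brief bursts in rare embryonic stem cells that resemble the 2-cell embryo.

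The sequence before the start of these genes was searched for letters that such repressors are known to read, and 11 of the 24 genes with a window held at least 1 of the 2 motifs described here, while 13 held neither. RefSeq (GRCm38.p6, the C57BL/6J genome) gave the 250 bases before the annotated start for 24 of the 36 genes. Both strands were searched for CACGTG, the E-box bound by MAX and MGA, and for GCGGGA, letters of an E2F-type site; in the windows printed here, matches of one do not overlap those of the other. CACGTG was found in 8 of the 24 genes (33.3%), against 6.9% of 27025 genes of the table. GCGGGA was found in 7 (29.2%, against 18.8%). The 4 genes that held both were Ddx4, Mael, Hormad1 and Sycp3, 16.7% against 2% of all genes. The median window of these genes held 12.5 CpG, and that of all genes 6. A match describes the letters and is not a measured binding site. The 4 genes with both motifs are shown with Smc1b, which had GCGGGA alone, and Dazl, which had neither, each 5′ to 3′ on the strand of its gene with matches in capitals.
Ddx4: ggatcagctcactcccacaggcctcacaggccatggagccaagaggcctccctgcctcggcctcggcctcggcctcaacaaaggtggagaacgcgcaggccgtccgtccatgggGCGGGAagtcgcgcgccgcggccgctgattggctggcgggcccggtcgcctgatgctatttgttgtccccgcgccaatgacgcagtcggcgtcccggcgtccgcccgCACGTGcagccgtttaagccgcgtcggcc
Mael: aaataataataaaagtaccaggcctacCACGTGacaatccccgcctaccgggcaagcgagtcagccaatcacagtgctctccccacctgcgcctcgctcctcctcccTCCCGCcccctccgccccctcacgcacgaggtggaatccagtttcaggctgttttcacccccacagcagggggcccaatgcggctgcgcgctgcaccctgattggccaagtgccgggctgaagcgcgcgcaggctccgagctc
Hormad1: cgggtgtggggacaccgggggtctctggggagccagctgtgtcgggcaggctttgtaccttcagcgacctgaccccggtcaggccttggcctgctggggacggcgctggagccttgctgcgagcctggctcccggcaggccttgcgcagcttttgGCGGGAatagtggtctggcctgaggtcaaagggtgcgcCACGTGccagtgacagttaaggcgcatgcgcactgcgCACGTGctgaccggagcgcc
Sycp3: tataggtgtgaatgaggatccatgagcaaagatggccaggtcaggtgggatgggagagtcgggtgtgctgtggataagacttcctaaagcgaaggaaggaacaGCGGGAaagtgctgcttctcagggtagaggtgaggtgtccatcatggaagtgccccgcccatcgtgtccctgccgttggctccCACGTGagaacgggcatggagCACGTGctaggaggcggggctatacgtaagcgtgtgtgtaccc
Smc1b: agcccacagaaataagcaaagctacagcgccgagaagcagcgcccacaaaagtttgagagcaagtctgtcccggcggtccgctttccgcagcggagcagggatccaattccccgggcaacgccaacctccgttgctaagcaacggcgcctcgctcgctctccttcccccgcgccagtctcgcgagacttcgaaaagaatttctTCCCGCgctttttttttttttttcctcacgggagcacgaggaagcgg
Dazl: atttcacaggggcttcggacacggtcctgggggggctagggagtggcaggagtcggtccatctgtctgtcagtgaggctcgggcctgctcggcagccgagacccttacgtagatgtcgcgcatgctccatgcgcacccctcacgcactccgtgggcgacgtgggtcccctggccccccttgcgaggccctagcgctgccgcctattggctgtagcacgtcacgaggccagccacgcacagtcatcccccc
The windows lie at chr13:112652311-112652560 (minus strand) for Ddx4, chr1:166238745-166238994 (minus) for Mael, chr3:95559427-95559676 (plus) for Hormad1, chr10:88459337-88459586 (plus) for Sycp3, chr15:85131958-85132207 (minus) for Smc1b and chr17:50293621-50293870 (minus) for Dazl. Hormad1 has a second annotated start that shifts its window slightly and holds the same matches.

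The arrays followed their labels: Gmnn, the gene of Geminin, was at 27.6%, 48% and 36.7% of the control signal in experiments 1, 2 and 3. The 6 arrays had medians between 59.3 and 60.9, and their number limits the precision. The arrays of experiment 3 stood apart in both arms. Over 11187 brighter genes the SD of the log2 difference from an array of experiment 3 to one of the other experiments was 0.397 to 0.428, against 0.155 to 0.208 for any other pair. The label of neural ectoderm held in part, and its markers did not move one way: in experiment 3 the log2 difference was -2.24 for Pax6 (adjusted p = 4.22e-10) and -2.04 for Sox1 (1.98e-11), but 0.93 for Otx2 (1.52e-08) and 0.35 for Sox3 (0.00124). Among markers of undifferentiated stem cells it was -2.61 for Nanog (1.98e-11) and -1.91 for Klf4 (5.58e-09), and -0.03 for Pou5f1 (0.577). Bulk RNA cannot tell fewer cells of a type from less RNA per cell.

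Experiment 3 was set beside experiments 1 and 2 first. Most of the group was lower in experiment 3, the meiosis genes Hormad1 and Rec8 and the germline gene Dppa3 by more than 2-fold. In limma, with the arm and the experiment in the fit, 18 of 28 genes (64.3%) were called lower at a Benjamini-Hochberg adjusted p under 0.05, where 22.1% of all genes tested were. Of all genes, 34.0% were called in either direction. The synaptonemal complex gene Sycp3 alone was called higher, 1 of 28, against 11.9% of all genes. The median log2 difference was -0.39 for the group and -0.04 for all genes, with log2 taken of the signal plus 16, which understates changes of dim genes. Both arrays of experiment 3 lay below all 4 others for 19 of the 28 (67.9%, against 31.0% of all genes) and above them for 1 (against 19.7%). At least 2-fold and called lower were 4 of 28, against 1.73%, and 0 were called higher by that fold, against 0.740%. One of the 4, Smc1b, passed the filter through experiments 1 and 2 alone, so its decrease was conditioned on the filter; without it 17 of 27 were called lower, 3 of them by 2-fold, and the median was -0.36. The genes at least 2-fold lower were read by probe sets 1449253_at (Smc1b), 1450292_a_at (Hormad1), 1424295_at (Dppa3) and 1419147_at (Rec8). Experiment 3 is 1 experiment, so these p-values measure its cultures against the spread between arrays, not what another such experiment would give.

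**Figure D1:**
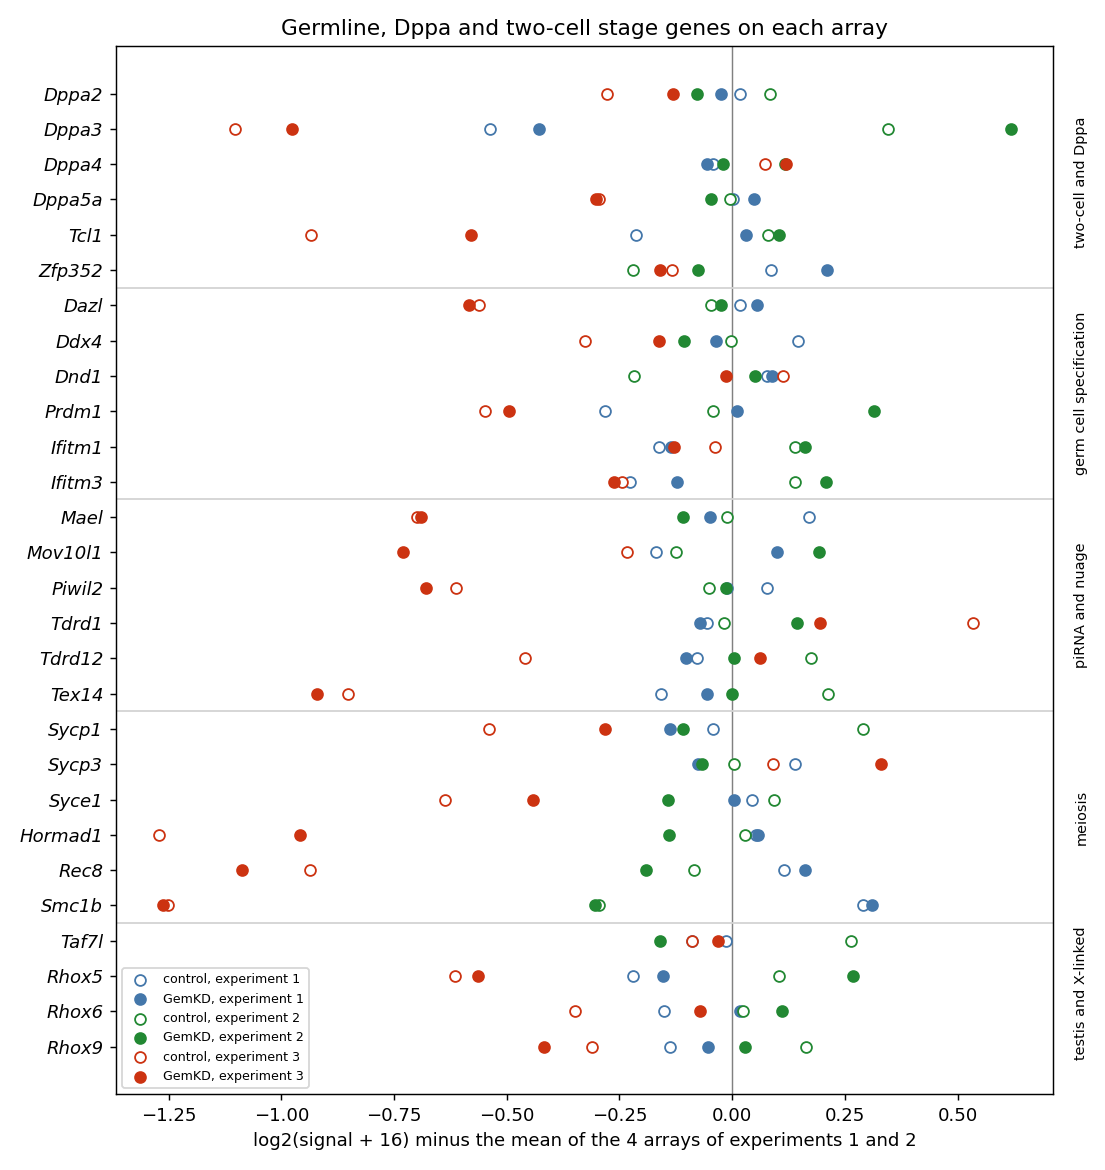
Each of the 28 genes above the filter (rows, grouped by role) on the 6 arrays, as log2 of signal plus 16 minus the mean of the 4 arrays of experiments 1 and 2; open points are controls, filled points GemKD and colours the experiments. The red points of experiment 3 lie left of all the others for 19 genes.

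Among the Dppa and 2-cell genes, Dppa3, which encodes Stella, a maternal factor that protects DNA methylation in the zygote, differed most between experiments. Its signal was 113 in the control and 123 in the GemKD array of experiment 1, 222 and 271 in experiment 2, and 71.0 and 79.1 in experiment 3. All 3 experiments were separate, with experiment 2 highest and experiment 3 lowest. It was 2.06-fold lower in experiment 3 (log2 -1.04, SE 0.12, limma adjusted p = 1.38e-05). The log2 difference was -0.56 against experiment 1 alone (adjusted p = 0.0082) and -1.52 against experiment 2 alone (2.03e-06). In controls alone it was -1.01 and in GemKD alone -1.07. The call was lost in these fits of 1 arm, which pooled experiments 1 and 2, so the difference between those experiments entered the error. Tcl1, an AKT coactivator of the early embryo and naive stem cells, had 102, 128 and 55.5 in the controls and 124, 131 and 75.3 in the GemKD arrays of experiments 1, 2 and 3. Experiment 3 was lower on both arrays (log2 -0.76, SE 0.14, adjusted p = 6.15e-04). Dppa5a, a small RNA-binding protein of pluripotent cells, was bright on all arrays. Its controls had 12216, 12159.8 and 9934 and its GemKD arrays 12610.4, 11804 and 9888, which gave a small difference with a small error (log2 -0.30, SE 0.03, adjusted p = 2.11e-06).

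Dppa2 and Dppa4 encode SAP domain proteins that act together on chromatin to prime 2-cell and germline promoters, and lie next to each other in the genome. They did not move alike in experiment 3. Dppa2 had control signals of 4681, 4905 and 3812 and GemKD signals of 4543, 4380.4 and 4222 (log2 -0.20, SE 0.05, adjusted p = 0.00811). The Dppa2 call was lost without the control array of experiment 3 (log2 -0.08, adjusted p = 0.304). A second, dimmer Dppa2 probe set had a log2 difference of -0.30. Dppa4 had control signals of 3952, 4418 and 4278 and GemKD signals of 3915, 4011 and 4421 (log2 0.10, 95% interval -0.0025 to 0.19, adjusted p = 0.125), and was called higher in fits that left out the control of experiment 2 (adjusted p = 0.0436) or the control of experiment 3 (0.0495). Zfp352, a retrotransposed zinc finger gene of the 2-cell embryo, overlapped between experiments, with 102 to 143 in experiments 1 and 2 and 107 and 109 in experiment 3 (log2 -0.15, 95% interval -0.42 to 0.12, adjusted p = 0.407).

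Among the genes of germ cell specification and identity, Dazl, an RNA-binding protein needed for germ cell development, was lower on both arrays of experiment 3. Its controls had 424, 405 and 279 and its GemKD arrays 436, 412 and 274 in experiments 1, 2 and 3. The 4 arrays of experiments 1 and 2 averaged 419 ± 13.5 (SD, n = 4), and experiment 3 was 1.49-fold lower (log2 -0.57, SE 0.09, adjusted p = 2.02e-04). Its other probe set, which averaged 253, had a log2 difference of -0.46. Prdm1, which encodes BLIMP1, the repressor that sets up the primordial germ cell fate, was dim, with 49.7 to 83.5 in experiments 1 and 2 and 38.7 and 40.7 in experiment 3. It was called lower (log2 -0.52, SE 0.16, adjusted p = 0.0222), and the call was lost without the GemKD array of experiment 1 (0.063), 2 (0.0795) or 3 (0.169).

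Ddx4, the germ granule helicase also called Vasa, was readily measured, at 1563, 1407 and 1122 in controls and 1375, 1309 and 1258 in GemKD. It was 1.18-fold lower in experiment 3 (log2 -0.24, SE 0.07, adjusted p = 0.0188), a call that was lost without the control array of experiment 1 (0.0847) or 3 (0.383). Ifitm3 and Ifitm1 are neighbouring interferon-inducible membrane genes, also known as Fragilis genes of early germ cells. Ifitm3 had 1469 to 1579 in experiment 1, 1897 and 1989.9 in experiment 2 and 1432 and 1451 in experiment 3, so experiments 1 and 3 lay close together. It was called lower (log2 -0.25, SE 0.06, adjusted p = 0.00402) but not against experiment 1 alone (log2 -0.08, adjusted p = 0.432). Ifitm1 was not called (log2 -0.08, 95% interval -0.21 to 0.05, adjusted p = 0.317), with 1363 to 1709.7 in experiments 1 and 2 and 1396 and 1487 in experiment 3; against experiment 2 alone its adjusted p was 0.0222. Dnd1, which shields germ cell transcripts from microRNAs, showed no separation of experiments, at 269 to 337 in experiments 1 and 2 and 313 and 343 in experiment 3 (log2 0.05, 95% interval -0.17 to 0.27, adjusted p = 0.755).

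The piRNA genes act in germ granules, where PIWI proteins loaded with small RNAs silence retrotransposons. Mael, a component of this pathway, had 1954, 1719 and 1063 in the controls and 1675, 1606 and 1068 in the GemKD arrays of experiments 1, 2 and 3. The arrays of experiment 3 were nearly equal and well below the other 4, for a difference of 1.62-fold (log2 -0.69, SE 0.06, adjusted p = 1.38e-06). Piwil2, a PIWI protein, had 633, 577 and 386 in controls and 594, 593 and 368 in GemKD. It was 1.56-fold lower in experiment 3 (log2 -0.65, SE 0.08, adjusted p = 3.46e-05). Tex14, a protein of the bridges between germ cells, was 1.85-fold lower (log2 -0.89, SE 0.11, adjusted p = 1.7e-05), with 276 to 362 in experiments 1 and 2 and 156 and 165 in experiment 3.

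Mov10l1, the helicase that hands precursors to the PIWI proteins, was low on 1 array. Its controls had 143, 148 and 136 and its GemKD arrays 176, 189 and 91.8 in experiments 1, 2 and 3. It was called lower (log2 -0.48, SE 0.16, adjusted p = 0.0271), but the log2 difference was -0.09 (adjusted p = 0.676) without the GemKD array of experiment 3, and the call was also lost without the GemKD array of experiment 2 (0.0662). Tdrd12, a Tudor protein of secondary piRNA production, had 570.1 to 694 in experiments 1 and 2, with 442 in the control and 640.3 in the GemKD array of experiment 3. It was not called (log2 -0.20, 95% interval -0.44 to 0.05, adjusted p = 0.203), and was called lower without the GemKD array of experiment 2 (0.0264) or of experiment 3 (log2 -0.51, 0.00137). Tdrd1, a Tudor scaffold of germ granules, was close to the filter limit at 21.4 to 27.4 in experiments 1 and 2 and was 40.9 and 29.0 in experiment 3. It was the gene whose arrays of experiment 3 both lay above the others, and it was not called (log2 0.37, 95% interval -0.07 to 0.80, adjusted p = 0.191).

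**Figure D2:**
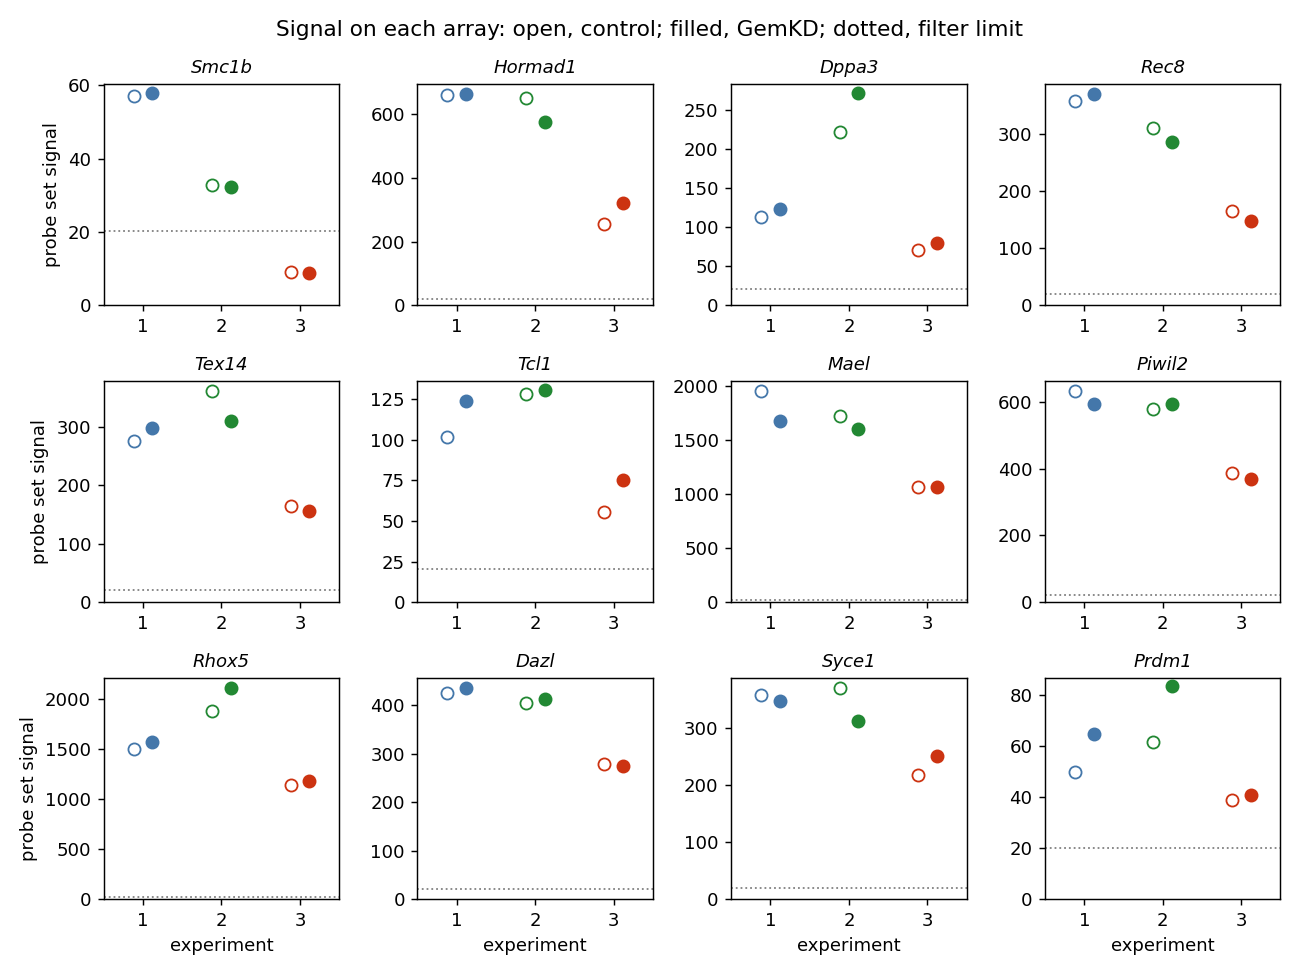
Probe set signal on a linear axis from 0 for the 12 genes with the largest called decrease, by experiment, with open points for controls, filled points for GemKD and a dotted line at the filter limit of 20.1. Both arrays of experiment 3 lie below the others in every panel, and for Smc1b also below the limit.

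Of 6 meiosis genes 4 were called lower and 1 higher, against 22.1% and 11.9% of all genes. The 4 include Smc1b, which passed the filter through experiments 1 and 2 alone. The median of the 6 was -0.78, or -0.54 without Smc1b, and that of all genes -0.04. Hormad1, which marks unpaired chromosome axes in meiosis, had 661, 649.7 and 254 in controls and 664, 577 and 320.1 in GemKD. It was 2.17-fold lower in experiment 3 (log2 -1.12, SE 0.10, adjusted p = 9.51e-07). Rec8, the meiotic kleisin subunit of cohesin, had 358, 309.7 and 165 in controls and 371, 287 and 147 in GemKD. It was 2.02-fold lower (log2 -1.01, SE 0.10, adjusted p = 3.13e-06). Smc1b, the meiotic partner of Rec8 in the cohesin ring, was dim, with 57.0 and 58.0 in experiment 1, 32.7 and 32.3 in experiment 2 and 9.1 and 8.88 in experiment 3. It was called lower (log2 -1.26, SE 0.19, adjusted p = 1.61e-04), and the arrays of experiment 3 were under the filter limit, so this fold is taken against arrays not above the limit and its size is poorly fixed.

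Genes of the synaptonemal complex, the ladder that joins paired chromosomes, did not move together. Syce1, of its central element, had 358, 371 and 217 in controls and 348, 313 and 251 in GemKD, and was lower in experiment 3 (log2 -0.54, SE 0.11, adjusted p = 0.00122). Sycp1, the transverse filament, was dim, at 72.6 to 103 in experiments 1 and 2 and 51.0 and 64.1 in experiment 3. It was not called (log2 -0.41, 95% interval -0.76 to -0.06, adjusted p = 0.0663), and was called lower without the GemKD array of experiment 2 (0.0242) or 3 (0.0174). Sycp3, of the lateral element, had 2014, 1833 and 1946 in controls and 1734, 1744 and 2301 in GemKD. Only the GemKD array of experiment 3 stood above the others. It was called higher (log2 0.21, SE 0.08, adjusted p = 0.0442), and the log2 difference was 0.02 (adjusted p = 0.873) without that array and 0.13 (0.182) without the GemKD array of experiment 1. The promoter windows of Hormad1 and Sycp3 shown above both hold CACGTG at 2 places and GCGGGA once, while the former was called lower and the latter higher. Among genes with a window, CACGTG was found in 4 of 13 called lower and in 4 of 7 tested and not called lower, and GCGGGA in 6 of 13 and 1 of 7, given as counts with no test.

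Among the testis and X-linked genes, Rhox5, a homeobox gene of the X-linked Rhox cluster, had 1497, 1876 and 1134 in controls and 1568, 2105 and 1175 in GemKD. Experiment 3 was lowest and experiment 2 highest, and the difference was 1.5-fold (log2 -0.59, SE 0.06, adjusted p = 3.61e-06). Rhox9, of the same cluster, had 115 to 145 in experiments 1 and 2 and 100.1 and 91.8 in experiment 3 (log2 -0.36, SE 0.13, adjusted p = 0.0393). That call was lost in 5 of the 6 fits without 1 array, those without the GemKD array of experiment 1 (0.161), 2 (0.0641) or 3 (0.132) and those without the control of experiment 2 (0.135) or 3 (0.0649). Rhox6 went from 94.4 to 116 in experiments 1 and 2 to 80.2 and 101 in experiment 3 and was not called (log2 -0.21, 95% interval -0.49 to 0.07, adjusted p = 0.246). Taf7l, a germ cell paralog of the TFIID subunit TAF7, had 159 to 218 and 167 and 175 (log2 -0.06, 95% interval -0.33 to 0.20, adjusted p = 0.749).

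Experiments 1 and 2, which differ in line and hairpin, gave a yardstick for these differences. Dppa3 was the 1 gene of 28 called between them, against 0.106% of all genes (15 genes) in either direction and 0.0705% higher in experiment 2, at 1.95-fold higher in experiment 2 (log2 0.96, adjusted p = 0.0148). Adjusted p was 0.0728 for Rhox5 (log2 0.37) and 0.107 for Ifitm3 (0.35), both higher in experiment 2. Smc1b had -0.60 (adjusted p = 0.956). The median over the group was 0.08, and that of all genes -0.01. Against experiment 1 alone, which used the same hairpin, experiment 3 was called lower for 14 of 28 genes (against 18.8% of all genes), and against experiment 2 alone for 18 of 28 (against 18.3%).

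**Figure D3:**
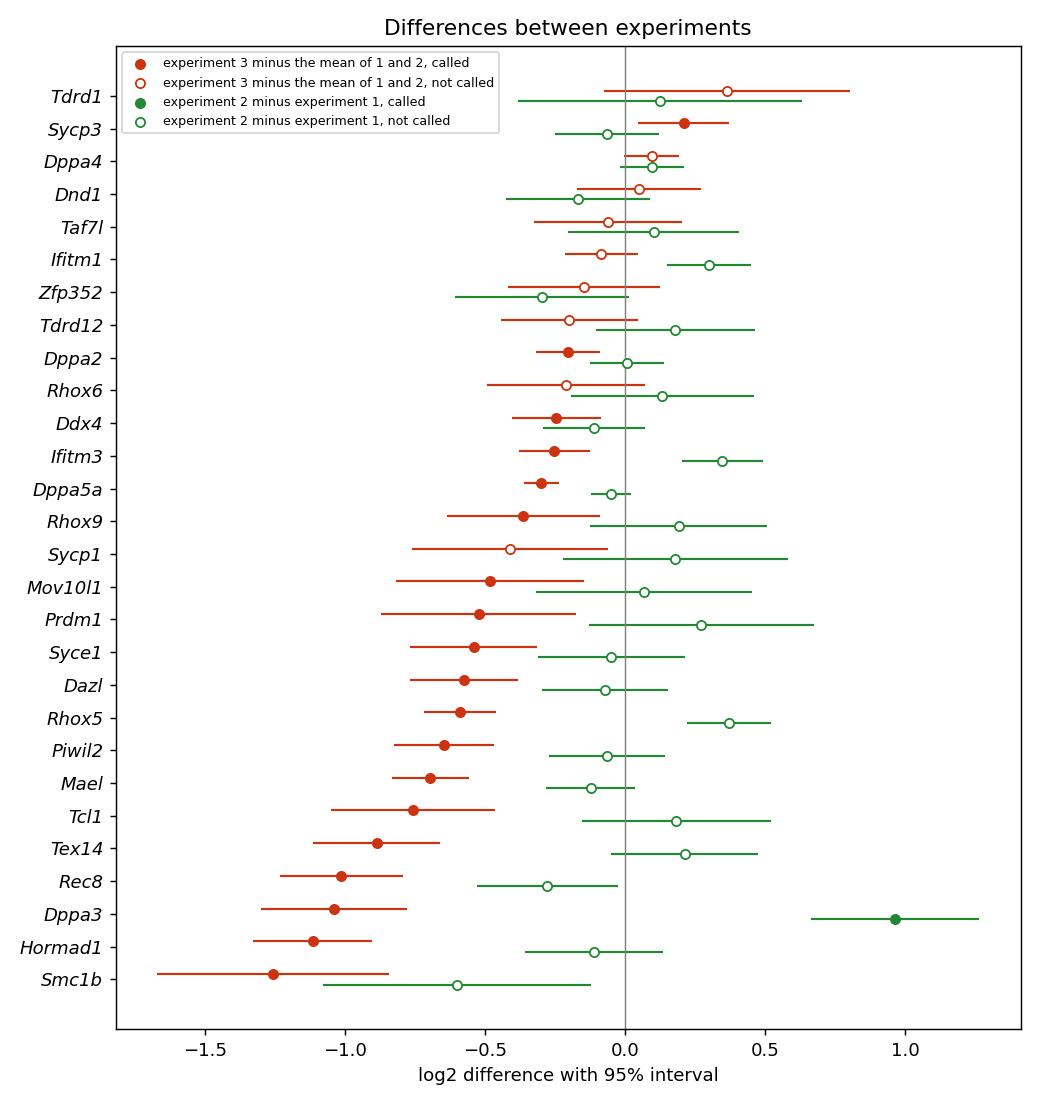
Log2 difference with its 95% interval for each gene, experiment 3 minus the mean of experiments 1 and 2 in red and experiment 2 minus experiment 1 in green, filled where called. Red intervals lie left of 0 for the 18 genes called lower, and Dppa3 is the one filled green point, at 0.96.

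The knockdown was compared next. No gene of the group was called between GemKD and control in limma, either without regard to experiment (0 of 28, against 0.00705% of all genes, 1 gene) or with the experiment as a block (0 of 28, against 0.0352%, 5 genes, of which 0.0141% higher and 0.0211% lower). At an unadjusted p under 0.05 there were 0 of 28 in each fit, where all genes gave 0.87% and 4.76%. In experiments 1 and 2 alone, with the block, 0 of 28 were called (against 0.113% higher and 0.0846% lower, 0.197% in all) and 5 of 28 had an unadjusted p under 0.05, where 10.3% of all genes did. The log2 differences ran from -0.15 for Taf7l to 0.23 for Prdm1, with a median of -0.01 for the group and 0.002 for all genes. The blocked 95% intervals of all 28 lay within 1.5-fold either way, the widest reaching down to -0.48 (Tdrd1) and up to 0.56 (Prdm1). Without the block the intervals were wider, with a median half-width of 0.49 for the group, against 0.21 with it. Some then passed 1.5-fold, among them Dppa3 (-0.95 to 1.29) and Smc1b (-1.15 to 1.15). In experiments 1 and 2 alone, with the block, the interval of Prdm1 reached 0.67. The limit of 1.5-fold thus holds for the blocked fit of all 3 experiments only. GemKD and control arrays overlapped for all 28 genes, where the 2 groups were apart for 4.33% of all genes.

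Within experiments, none of the 28 passed 1.5-fold in either direction. Among all genes 0.853% were higher and 0.839% lower past that fold in experiment 1, 1.04% and 1.35% in experiment 2 and 2.05% and 2.07% in experiment 3, with 0.0423% past it in all 3 experiments. Medians of the group were 0.02, -0.03 and 0.03 in the 3 experiments. GemKD was higher in all 3 experiments for 5 genes (against 12.2% of all genes), Dppa3, Tcl1, Prdm1, Rhox5 and Rhox6, and lower in all 3 for 0 (against 11.7%). Dppa3 had log2 ratios of 0.11, 0.27 and 0.13, Tcl1 0.25, 0.02 and 0.35, and Prdm1 0.29, 0.36 and 0.05 in experiments 1, 2 and 3. Their means were 0.17, 0.21 and 0.23, each with a blocked adjusted p of 0.997. Rhox5 had ratios of 0.07, 0.16 and 0.05, with a mean of 0.09 (blocked SE 0.06, limma unadjusted p = 0.121, adjusted p = 0.997).

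Some genes had ratios of opposite sign between experiments. Mov10l1 had 0.27 and 0.32 in experiments 1 and 2 and -0.50 in experiment 3. Tdrd12 had -0.02 and -0.17 and then 0.52. Hormad1 had 0.01 and -0.17 and then 0.31. The interaction fit that follows pooled experiments 1 and 2 and did not use the pairing of arrays. Differences between those experiments entered its error, so a gene it did not call may still respond differently in experiment 3. The difference between the effect in experiment 3 and that in experiments 1 and 2 was tested as an interaction in limma, and 0 of 28 genes were called (against 0.0141% of all genes), the smallest adjusted p being 0.395, with 6 of 28 at an unadjusted p under 0.05 (10.8% of all genes).

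**Figure D4:**
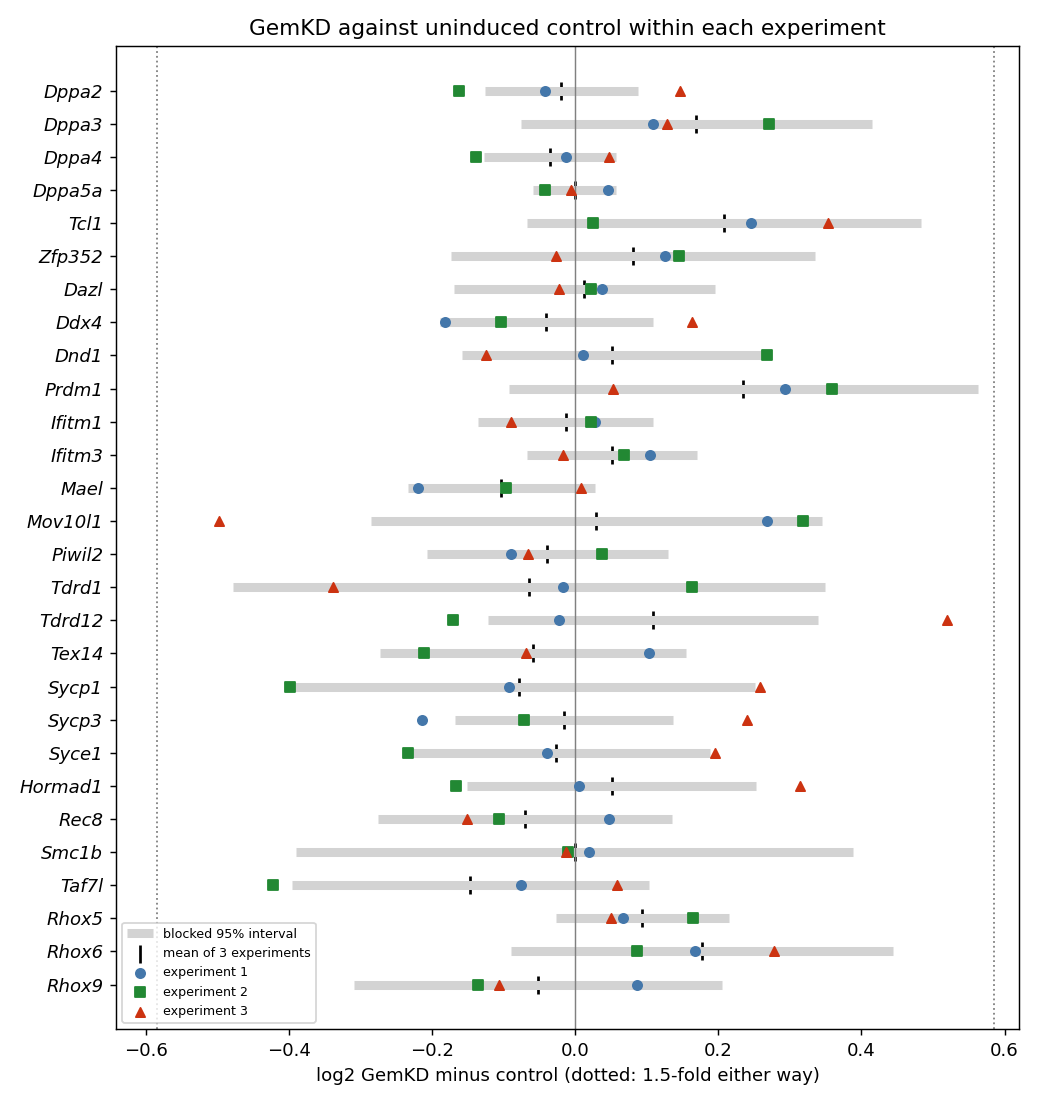
Log2 GemKD minus control of each gene in experiments 1 (circles), 2 (squares) and 3 (triangles), with the mean of the 3 (black bar) and its blocked 95% interval (grey). No single ratio passes 1.5-fold (dotted lines), and every grey interval stays within them.

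Other genes of these pathways, from lists of genes outside the group, were read in the same fits. Of 27 other germ cell and piRNA genes tested, 11 were called lower and 2 higher in experiment 3, against 22.1% and 11.9% of all genes. Their median log2 difference was -0.20. The 2 called higher were Tdrd5 (0.55, adjusted p = 0.0111) and Dmrt1 (0.47, 0.00764). Tfap2c, a transcription factor of the germ cell fate, had -1.85 (adjusted p = 6.27e-09), Sohlh2, a germ cell bHLH factor, -1.70 (2.89e-09), and Kit, the stem cell factor receptor, -1.51 (2.79e-08). Dnmt3l, the cofactor of de novo DNA methylation in germ cells, had -1.31 (6.89e-11). Of 18 other meiosis genes 8 were called lower and 1 higher, beside the same shares of all genes, with a median of -0.28. Stra8, the retinoic acid target that opens meiosis, had -4.30 (1.55e-13), the recombinase gene Dmc1 -0.55 (2.47e-04) and Meiob, a single-strand DNA binding protein of meiosis, -1.07 (0.00218), while Tex15 had 0.96 (1.15e-04). None of either list was called between GemKD and control in limma with or without the block. At an unadjusted p under 0.05 there were 0 of 27 and 0 of 18 without it and 3 and 2 with it. The log2 differences ran from -0.19 to 0.30 in the germ cell and piRNA list. In the meiosis list they ran from -0.28 to 1.07, the last for Brdt (blocked SE 0.23, limma adjusted p = 0.299), so differences not called were not all small. In experiments 1 and 2 alone, with the block, 1 of the 18 meiosis genes was called higher in GemKD, Stra8 (log2 0.34, SE 0.06, adjusted p = 0.0426), and 0 of the 27 others.

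Markers of cell states moved with experiment 3 as well, and their part in these differences was not tested. The counts below stand beside 22.1% of all genes called lower and 11.9% called higher. All 8 markers of undifferentiated embryonic stem cells had a negative difference and 6 were called lower, with summed signals of 16253 to 18581 in experiments 1 and 2 and 11207 and 11635 in experiment 3. Of 7 measured defining markers of primordial germ cells, 5 were called lower (Prdm1, Dppa3, Ddx4, Dazl and Kit; Dnd1 and Prdm14 were not, and all but Kit and Prdm14 belong to the genes described above), and the summed signal went from 2812 to 2938 to 2059 and 2158. None of them was at 0, which alone does not show expression. The dimmest, Prdm1 and Prdm14, had mean signals of 56.45 and 59.44. Both lay under 98.5, the 90th percentile of genes restricted to adult tissues. Fibroblast genes were also lower, 4 of 7 called lower and 1 higher, at summed signals of 1341 to 1529 and then 722 and 788. Of the neural ectoderm markers 4 of 8 were called lower and 2 higher, at summed signals of 11875 to 12338 and then 10225 and 10714. Summed signals of primitive endoderm genes were 468 to 709 and 566 and 574, of mesoderm genes 682 to 838 and 668 and 678, and of trophoblast genes 211 to 263 and 294 and 358.

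The members near background were Tcstv1, Tcstv3 and Tex101, at or under the filter limit and left out of the tests. Tcstv1, a gene of the 2-cell-like state, had 20.6, 18.9 and 2.73 in controls and 22.0, 32.4 and 9.05 in GemKD. It lay around or somewhat above the limit in experiments 1 and 2 and under it in experiment 3. Tcstv3, of the same family, had 1 to 12.8 and Tex101, a testis surface protein, 1 to 6.14. A list of 40 genes restricted to adult tissues, of which 35 were measured, had a median signal of 16.4 and a 90th percentile of 98.5. By that measure Prdm1, Tdrd1, Sycp1 and Smc1b, with mean signals under 98.5, also lay in a range where genes not known for these cells are found. Among the other genes called lower, Dppa3 (71.0 and 79.1) and Tcl1 (55.5 and 75.3) had both arrays of experiment 3 in that range. Mov10l1 and Rhox9 had the GemKD array of experiment 3 there, at 91.8 each. Their decreases were thus taken against arrays in that range, and their sizes are less certain.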

How the data were processed

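RNA from 6 cultures was read on the Mouse Genome 430 2.0 array. The values are linear probe set intensities as deposited by the authors; which software, background correction and normalization made them is not given in the sources used here. Of 45037 probe sets, 34945 carried 1 gene symbol, 932 several and 9160 none in the platform annotation; no symbol changed through RefSeq (GRCm38.p6). One probe set per gene, that with the highest mean, was kept where its mean exceeded the 30th percentile (20.14). log2(signal + 16) was tested in limma 3.58.1 (R 4.3.3) with the intensity trend, and p-values were adjusted by Benjamini-Hochberg over 14185 genes. Contrasts were GemKD minus control, experiment 3 minus the mean of 1 and 2 with the arm in the fit, experiment 2 minus 1, and the interaction. The fits were tested on simulated data in which 200 of 14185 genes were changed. Of the 2-fold changes put in, 54.2% were called for GemKD without the block and 72% with it. For experiment 3 it was 68.2%, so a gene of the whole array not called may still differ by 2-fold. That simulation changed far fewer genes than the 4822 called in experiment 3, so its rate need not hold there. For genes of the group not called in experiment 3, the 95% intervals reached at most -0.76 (Sycp1) and 0.80 (Tdrd1), within 2-fold. All members of the list are named, and the genes and lists were chosen with earlier results of these data known. The labels call the experiments independent, so equal numbers pair arrays: deviations of GemKD and control arrays correlated at 0.489, 0.472 and 0.714 in experiments 1, 2 and 3, against 0.314 and 0.416 across experiments 1 and 2 and -0.602 to -0.487 with experiment 3, so the values themselves set experiments 1 and 2 little apart. Separate cultures per experiment are labelled; no culture was repeated within one. Alternatives were quantile normalization, pseudocounts 1 and 64, other filters, all probe sets, no trend, single experiments or arms, and leaving out arrays. Fits of single arms, like the interaction, used all 6 arrays with experiments 1 and 2 pooled, so differences between those experiments entered the error.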

Additional observations from a re-analysis of the deposited data

How the results depend on the processing

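The count of genes called lower in experiment 3 (18) stayed between 12 and 18 under the other normalization, filters, pseudocounts, probe set rule, trend and subsets of arrays, and between 15 and 17 when 1 array was left out; at least 2-fold lower were 4. The count called higher (1) became 0 without a filter, with the mean of all probe sets, without the intensity trend, against experiment 1 or 2 alone, in control arrays alone, with experiments 1 and 2 as one level and at 2-fold, and ranged from 0 to 2 when 1 array was left out. The count between experiments 2 and 1 (1) became 0 without a filter and without the trend. For GemKD against control the count was 0 in each alternative run, the replicate block included (median log2 difference of the group -0.01), and the block changed no call. Of the 18 genes called lower, 11 were called in every alternative that tested them: Dppa5a, Tcl1, Dazl, Mael, Piwil2, Tex14, Syce1, Hormad1, Rec8, Smc1b and Rhox5. Smc1b passed the filter through experiments 1 and 2 alone, and the filter at the 50th percentile left it untested, so its place among the 11 is conditioned on the filter. Of 1086 single-gene values under alternatives, 47 lost a call and 9 gained one, and 0 that were called on either side changed sign. Uncalled values near 0 did change sign, 11 in the comparison of experiment 3 (of Dnd1, Taf7l, Tdrd12, Zfp352 and Ifitm1; Tdrd12, for example, had -0.20 with all arrays and 0.11 in GemKD arrays alone) and 103 for GemKD against control. The cause of these changes was not tested. A fit without 1 array leaves 1 arm of an experiment empty, so the remaining array is assumed to vary like the others. Genes near the filter limit are the least precise.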

Other observations

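Genes that act on germline and 2-cell promoters were read in the same fits. Of 24 repressors of germline genes tested, 7 were called lower and 6 higher in experiment 3, against 22.1% and 11.9% of all genes. Their median log2 difference was -0.08. Max, which pairs with MGA at the E-box, had -0.41 (limma adjusted p = 0.00333), and Mga itself 0.07 (0.476). E2f6 had 0.24 (0.00795) and Pcgf6 0.19 (0.015), and the maintenance factor Uhrf1 -0.24 (0.00138). The DNA methyltransferase genes Dnmt3a and Dnmt3b had 0.28 (0.0012) and 0.19 (4.04e-04). Also called lower were Tfdp2 (-0.30), Atf7ip (-0.27), Ehmt1 (-0.25), Kdm1a (-0.17) and Trim28 (-0.14). Also called higher were Tfdp1 (0.23) and Hdac2 (0.17). Of 14 regulators of 2-cell genes, 6 were called lower and 3 higher, with Zmym2 at -0.42 (2.61e-05) and Smchd1 at 0.26 (0.00978). This list is not separate from the others. It holds Dppa2 and Dppa4 of the group, and Trim28, Kdm1a, Ehmt2 and Pcgf6, which are also among the repressors. Dppa2, Trim28 and Kdm1a are among the 6 called lower, and Pcgf6 among the 3 called higher. None of either list was called between GemKD and control in limma, with 0 of 24 and 0 of 14 at an unadjusted p under 0.05 without the block and 1 and 1 with it.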
